A study of Mus musculus with 7 samples.

Results

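Replication-dependent histone genes encode the core histones H2A, H2B, H3 and H4, around which DNA is wound, and the linker histone H1, which binds where DNA enters and leaves the nucleosome. Most of them are short genes without introns that stand in clusters, are transcribed mainly while DNA is replicated, and give mRNAs that end in a stem-loop in place of a poly(A) tail. The genes of the mouse were found among the genes of the count table by their symbols, in the older naming (Hist1 to Hist4) or the newer one (H1f, H2ac, H2bc, H3c and H4c followed by a number). That rule gave 73 of 27179 genes. Of these, 68 matched by their current symbol and 5 only by an older one, namely H2bu2, H2bu1-ps, H2aw, H4bc24 and H2af-ps2. By position 68 genes lay in the 4 clusters, with 54 in Hist1 on chromosome 13, 10 in Hist2 on chromosome 3, 3 in Hist3 on chromosome 11 and 1, H4f16, at Hist4 on chromosome 6. The remaining 5 lay elsewhere, and the name replication-dependent does not describe them: H1f0 and H1f10 are linker histones made outside S phase, H1f7 and H1f8 are germline linker histones, and H2af-ps2 is a transcribed pseudogene. These 5 genes are given apart below. The name may not fit every cluster gene either. H2bu1-ps of Hist3 is a transcribed pseudogene too, and H2bc1 and H2ac1 of Hist1 encode testis histones.

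The libraries came from pharyngeal arches, the first and the second, of E10.5 embryos on C57BL/6. Chromatin was immunoprecipitated with an antibody to V5 and sequenced (ChIP-seq) from arches homozygous for Moz-Flag-V5-BIO, an allele that tags the C-terminus of the histone acetyltransferase MOZ (KAT6A) in its own locus (V5, 3 libraries), and from untagged wild-type arches as the negative control (3 libraries). A single input library holds chromatin of tagged arches without immunoprecipitation, so nothing set against it has a replicate check on that side. The labels do not say whether replicates came from separate embryos or litters, so the spread may be technical, and 1 tagged allele was used. ChIP reads in a gene measure chromatin recovered there, not its expression, so the labelled tissue could not be checked against marker genes. The 6 ChIP libraries held 806648 to 3286602 counts and the input 3488745, and the histone genes held 132 to 441 of the ChIP counts and 695 of the input counts.

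The promoters show how alike these genes are and which neighbours share a control region. RefSeq promoter windows of GRCm38.p6 (the same assembly as mm10), from 250 bases before to 50 after the start, were found for 66 of the 73 genes, with 67 windows since H2bc6 has 2. Each of the following windows comes from a different histone type. Each is shown 5′ to 3′, with 3 motifs in capitals wherever they occur on either strand. They are TATAAA, the TATA box, CCAAT, which NF-Y binds, and ATTTGCAT, the octamer bound by POU factors.
H2bc12 (chr13:22035571-22035870, plus strand): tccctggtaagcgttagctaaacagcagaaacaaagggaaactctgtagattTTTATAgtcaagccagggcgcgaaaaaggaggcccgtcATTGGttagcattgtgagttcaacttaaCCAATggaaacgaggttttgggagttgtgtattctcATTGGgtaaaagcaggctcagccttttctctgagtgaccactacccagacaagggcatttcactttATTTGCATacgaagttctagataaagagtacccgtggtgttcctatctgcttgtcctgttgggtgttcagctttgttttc
H2ac13 (chr13:21716162-21716461, plus strand): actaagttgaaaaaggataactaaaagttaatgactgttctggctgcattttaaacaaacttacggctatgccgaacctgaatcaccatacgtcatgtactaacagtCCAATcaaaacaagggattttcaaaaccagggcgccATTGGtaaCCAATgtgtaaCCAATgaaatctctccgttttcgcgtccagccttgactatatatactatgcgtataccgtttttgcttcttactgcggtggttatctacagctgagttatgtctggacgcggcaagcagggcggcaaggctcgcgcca
H3c14 (chr3:96246435-96246734, plus strand): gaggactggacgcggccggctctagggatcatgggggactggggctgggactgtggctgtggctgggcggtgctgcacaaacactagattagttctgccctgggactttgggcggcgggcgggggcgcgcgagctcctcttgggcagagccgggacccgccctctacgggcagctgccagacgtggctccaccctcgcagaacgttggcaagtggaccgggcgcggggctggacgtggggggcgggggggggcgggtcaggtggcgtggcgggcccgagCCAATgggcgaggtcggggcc
H4c12 (chr13:21750504-21750803, minus strand): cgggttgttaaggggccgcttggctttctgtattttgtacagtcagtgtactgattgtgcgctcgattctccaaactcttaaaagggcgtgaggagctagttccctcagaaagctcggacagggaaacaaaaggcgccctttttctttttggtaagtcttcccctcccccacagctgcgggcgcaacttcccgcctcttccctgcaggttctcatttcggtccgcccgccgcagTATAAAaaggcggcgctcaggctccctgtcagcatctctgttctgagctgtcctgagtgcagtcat
H1f4 (chr13:23622509-23622808, minus strand): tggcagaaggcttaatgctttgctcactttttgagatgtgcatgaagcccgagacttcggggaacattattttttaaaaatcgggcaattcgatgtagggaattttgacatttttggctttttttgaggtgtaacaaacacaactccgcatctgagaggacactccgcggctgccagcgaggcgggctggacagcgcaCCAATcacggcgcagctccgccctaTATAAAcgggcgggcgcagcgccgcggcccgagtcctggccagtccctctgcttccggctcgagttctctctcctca

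H2bc12, an H2B gene, held all 3 motifs. H2ac13 is shown since it had the highest input level per kb of the short histone genes, and its window held CCAAT 4 times. H3c14 had the most counts in Hist2, and its window held 1 CCAAT, after the start. Its window is not typical of H3 genes, with a GC content of 72.7% against a median of 41.3% over H3 windows. H4c12 stands for the H4 genes, with a TATA box and no CCAAT. H1f4 is the cluster H1 gene with the most counts. CCAAT occurred in all 18 windows of H2A genes, all 17 of H2B genes and all 10 of H3 genes, but in 3 of 12 of H4 genes. Across histone genes it was in 82.1% of windows, against 37.4% of all 32851 promoter windows. TATAAA was in 52.2% of histone windows against 13.6% of all, and in 8 of 12 of H4 genes. The octamer was in 20.9% against 1.74%, in 7 H2A and 7 H2B windows and in no window of an H1, H3 or H4 gene. Windows of other genes of at most 1 kb held TATAAA in 38.5%, CCAAT in 44.5% and the octamer in 2.67%, against 62.0%, 84.0% and 22.0% in short histone genes, and their median GC content was 37.3% against 45.2%. These windows covered 1305 of 3520 such genes, so as a check on short genes as a set they are void. Hits of different motifs did not overlap in any histone window. A match describes these letters only and shows no binding. The windows are not independent: 10 pairs of an H2A and an H2B gene were divergent, with starts 164 to 281 bp apart, so that both windows cover the same DNA. The deposited counts cover genes and not these windows, so they do not measure the promoters themselves.

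Further windows bear on single results below. H2bc23 and H4bc24 (an H2B gene by its older name, Hist1h2br) had windows identical at all 300 bases, and how reads of such copies were assigned is not given in the sources used here. The window of H1f0, which had the largest difference between groups in mean CPM, held none of the 3 motifs and had a GC content of 75%, against a median of 45.7% over the histone windows.
H2bc23 (chr13:21810150-21810449, minus strand): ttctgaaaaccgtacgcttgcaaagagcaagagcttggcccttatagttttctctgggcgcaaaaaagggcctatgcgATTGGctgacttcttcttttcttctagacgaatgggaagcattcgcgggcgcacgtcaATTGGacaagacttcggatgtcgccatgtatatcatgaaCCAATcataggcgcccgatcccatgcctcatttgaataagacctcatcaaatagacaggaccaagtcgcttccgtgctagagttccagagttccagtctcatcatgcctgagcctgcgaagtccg
H1f0 (chr15:79027962-79028261, plus strand): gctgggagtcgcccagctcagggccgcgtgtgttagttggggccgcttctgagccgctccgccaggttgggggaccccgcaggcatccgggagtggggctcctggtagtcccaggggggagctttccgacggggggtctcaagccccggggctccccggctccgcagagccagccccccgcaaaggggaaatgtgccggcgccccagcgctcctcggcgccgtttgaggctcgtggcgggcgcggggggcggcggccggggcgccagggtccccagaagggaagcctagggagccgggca

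Most histone genes held few reads, and 1 gene held many of them. Their median deposited length was 479 bp, against 12070 bp over all genes, and 53 were at most 1 kb long. H2bc6 (chromosome 13, 23583670 to 23621124), an H2B gene with a deposited length of 37455 bp, held 28.0% of all histone counts. The 73 genes had 114.7 kb together, so its share of the counts was not above its share of the length. Apart from H2bc6 and H2bc4, no histone gene had enough counts for the gene-level test. At 0 counts in all 7 libraries were 7 genes, or 9.59%, against 9.68% of all genes. Among genes of at most 1 kb it was 5 of 53 histone genes, or 9.43%, against 33.1% of all genes of that length. These 7 were all neighbours: H4c8, H2ac10, H3c8, H2bc9, H3c7, H4c6 and H1f3 follow each other on chromosome 13 from 23531044 to 23555807. No other RefSeq gene overlaps them. In the input the limit of 3 counts set for a count of 0 comes to 0.860 CPM (reads of a gene for every 1e6 counted in its library). It covers counting error only, not reads lost in alignment or counting. Longer genes of the lists below were at 0 in all 7 libraries too: H3f3a (11036 bp) and H3f3b (2544 bp), which encode the variant H3.3, and Asf1a (12265 bp), a histone chaperone. How the authors counted reads of overlapping genes or copies is not given in the sources used here, and its part in the zeros was not tested. The next gene of the cluster, H3c6, had 12 counts in the input.

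**Figure D1:**
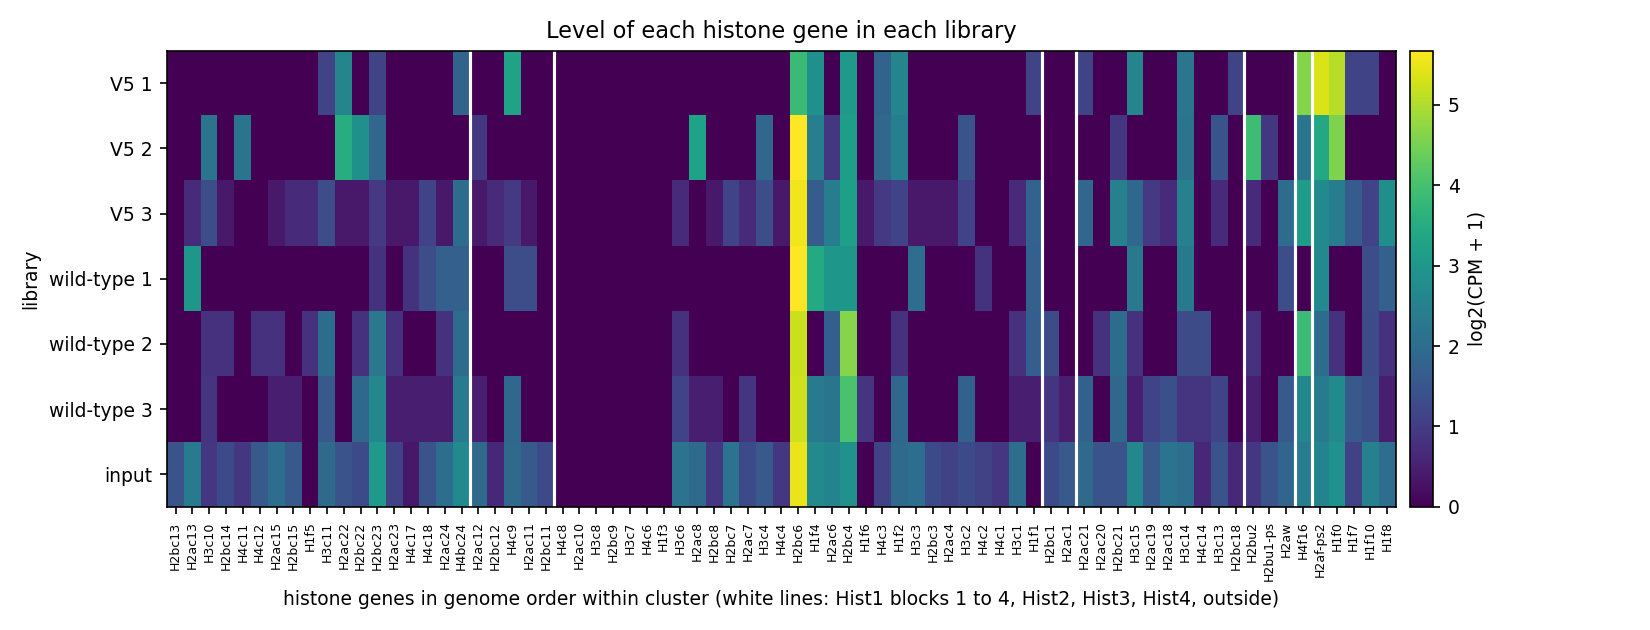
Heat map of log2(CPM + 1) (colour) for the 73 histone genes (x axis, in genome order within each cluster, white lines between the Hist1 blocks, the other clusters and the genes outside) in the 7 libraries (y axis). H2bc6 is the brightest column in most libraries, the 7 genes from H4c8 to H1f3 are at 0 in every library, and the input row is filled in most other short genes while the ChIP rows are patchy.

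Tagged and wild-type libraries were compared to ask where MOZ was bound. No histone gene passed. With edgeR's quasi-likelihood test over 14575 genes, 0 of the 2 histone genes tested were called at an adjusted p of 0.05 in either direction, and 0% of all genes were. At an unadjusted p under 0.05 there were 0 of 2 histone genes, against 2.74% of all genes higher and 1.38% lower in V5. DESeq2, which tested the 63 histone genes that had ChIP counts, called 0, as it did over all genes (0%). At an unadjusted p under 0.05 it had 3 of 63, near the 4.29% of all genes. These 3 were all higher in V5, as were 755 of all 24444 genes, while 293 were lower. Without a filter edgeR called 0 of the 63 too. At an unadjusted p under 0.05 it had 6 of 63, all higher in V5, against 858 of 24447 genes higher and 486 lower.

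The 3 V5 libraries, in order of replicate, held 11, 57 and 151 counts in H2bc6, the wild-type libraries 64, 48 and 94, and the input 155. In CPM that is 13.6, 50.1 and 45.9 in V5 against 49.7, 36.2 and 37.5, with 44.4 in the input. V5 replicate 1 was low and the groups overlapped. edgeR gave a log2 fold change of -0.13 (SE 0.45) and an adjusted p = 0.997. The sign turned when replicate 1 of V5 (0.20) or of the wild type (0.01) was left out. H2bc6 overlaps the non-coding gene Gm33387. H2bc4 (chromosome 13, 23684199 to 23692480, 8282 bp), an H2B gene too, had 7.44, 7.91 and 8.22 CPM in V5 and 6.98, 24.1 and 15.6 in the wild type. Its V5 values lay close together inside the wider wild-type range. edgeR gave -0.95 on the log2 scale (SE 0.73, adjusted p = 0.980), and -0.51 without wild-type replicate 2. H2bc4 was the only histone gene above the input (6.31 CPM) in all 6 ChIP libraries, or 1.52% of the 66 with a count, against 8.66% of all genes with a count.

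Summed over all 73 genes, the V5 libraries held 164, 168 and 134 CPM and the wild-type libraries 116, 112 and 124, with 199 in the input. Every V5 library was above every wild-type library, and the ratio of means was 1.32 (SD 0.156, n = 3). The SD of each V5 over wild-type ratio is that of V5 divided by the wild-type mean, and leaves out the wild-type spread. The separation of the groups rested on the genes outside the clusters. Over the 68 cluster genes the libraries held 89.3, 135 and 115 CPM against 107, 106 and 111. The groups overlapped there, with a ratio of 1.05 (SD 0.214). Without H1f0 and H2af-ps2 alone the ratio over the other 71 genes was 1.05 and the groups overlapped too. Sums over genes chosen with earlier results known were not tested.

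H1f0 (chromosome 15, 79028212 to 79030504, 2293 bp), which encodes the linker histone H1.0 of resting and differentiated cells, had 26, 26 and 14 counts with the tag, 0, 1 and 14 in the wild type and 22 in the input. In CPM that is 32.2, 22.8 and 4.26 against 0, 0.753 and 5.59, with 6.31 in the input. V5 replicates 1 and 2 were high, while V5 replicate 3, the deepest ChIP library, lay below wild-type replicate 3, so the groups overlapped. H1f0 did not reach the count filter. Without a filter edgeR gave 3.02 on the log2 scale (SE 0.93, adjusted p = 0.374), and DESeq2 gave 3.17 (adjusted p = 0.887). H1f0 passed the filter in 4 of the 6 edgeR fits that left out a library, with values from 2.53 without wild-type replicate 1 to 5.45 without wild-type replicate 3, and was called in 0 of them (adjusted p 0.446 to 1.00). It passed there only through V5 replicates 1 and 2, where it was high, so these values are no separate support for a difference. H2af-ps2 (chromosome 13, 51200084 to 51203066, deposited length 5871 bp) is an H2A pseudogene away from the Hist1 cluster. It had 39.7, 9.66 and 5.48 CPM in V5 and 5.43, 3.01 and 3.99 in the wild type, with 4.87 in the input. V5 replicate 1 was far above the rest. All V5 values lay above all wild-type values, though the gap between V5 replicate 3 and wild-type replicate 1 was narrow. edgeR without a filter gave 2.14 on the log2 scale (SE 0.89, adjusted p = 0.844). In the 4 such fits where H2af-ps2 passed the filter it ranged from 1.98 to 2.62, with adjusted p from 0.450 to 1.00. H2af-ps2 too passed only through V5 replicates 1 and 2.

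**Figure D2:**
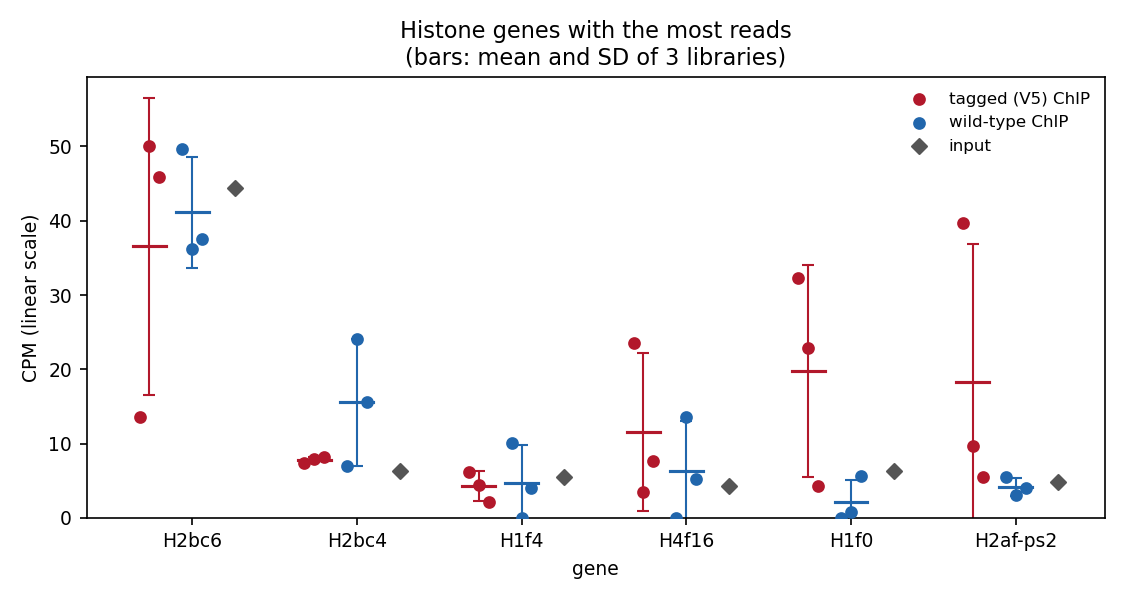
CPM per library (y axis, linear) for the 6 histone genes with the most counts (x axis), in V5 ChIP (red), wild-type ChIP (blue) and input (grey diamond), with the mean and SD of 3 libraries, where the lower end of an SD bar that would pass below 0 is not drawn. H1f0 and H2af-ps2 have their highest V5 values in replicates 1 and 2, and H2bc6 and H2bc4 overlap between groups.

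Of the 8 histone genes with at least 30 ChIP counts, 1, H2af-ps2, lay wholly higher in V5, against 4.67% of all such genes, and 0 lay wholly lower, against 5.01%. Over the 63 histone genes with any ChIP count, 3 were wholly higher (4.76%, against 4% of all genes with a ChIP count) and 2 wholly lower (3.17%, against 4.7%). Both shares were near the background. Chosen after their values were seen, the other separated genes were H2ac22, with 4, 12 and 1 counts with the tag and 0 in every wild-type library, H4c3, with 2, 3 and 3 against 0, H2ac24, with 0, 0 and 1 against 3, 1 and 1, and H1f10, with 1, 0 and 4 against 2, 2 and 4. All of them had fewer than 20 ChIP counts, and the input held 6 counts in H2ac22, 4 in H4c3, 11 in H2ac24 and 16 in H1f10.

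Single libraries held most of the reads of several histone genes. Of the 28 with at least 10 ChIP counts, 4 had at least 80% of them in 1 library (14.3%), against 1.04% of all genes. In genes of at most 1 kb it was 3 of 10 histone genes, against 17.7% of all genes of that length. H2bu2, an H2B gene of Hist3, had 0, 16 and 2 counts with the tag, 0, 1 and 1 in the wild type and 3 in the input. H2ac8 had 10 counts in V5 replicate 2, 1 in wild-type replicate 3 and 0 in the other ChIP libraries. H2ac13 had 9 in wild-type replicate 1 and 2 in V5 replicate 3 alone, and H1f8 had 20 in V5 replicate 3 and at most 3 elsewhere among the ChIP libraries. The handling of duplicate reads is not given in the sources used here, and its part in this pattern was not tested.

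By cluster, the groups overlapped in each of the 4. Hist1 held 54.5, 111 and 87.0 CPM in V5 and 97.8, 84.4 and 91.8 in the wild type, with 147 in the input. V5 replicate 1 was lowest and V5 replicate 2 highest. The V5 over wild-type ratio of Hist1 was 0.921, and 0.947 without H2bc6, which lies in it. Without H2bc6, all 72 remaining histone genes together held 150, 118 and 88.2 CPM against 66.7, 76.1 and 86.6. That sum includes H1f0 and H2af-ps2, which lie outside Hist1. Hist1 itself falls into 4 blocks that lie over 150000 bp apart. The first block, 18 genes from H2bc13 to H4bc24, held 9.92, 26.4 and 12.2 CPM in V5, 14.7, 15.8 and 17.2 in the wild type and 41.3 in the input. In it, H2bc23 had 1, 3 and 3 counts against 1, 5 and 13, with 26 in the input, and H4bc24, with the same promoter window, had 2, 0 and 10 against 3, 4 and 10, with 19 in the input. Both lay below the input in every ChIP library. The second block, 5 genes around H4c9, held 8.68, 0.878 and 2.13 CPM against 3.10, 0 and 3.19, with 9.75 in the input. H4c9 had 7, 0 and 3 counts with the tag and 2, 0 and 7 in the wild type. The third block, 29 genes with H2bc6 among them, held 36.0, 83.4 and 72.7 CPM against 79.9, 67.0 and 70.3, with 92.3 in the input. The fourth, the pair H2bc1 and H2ac1 that encodes testis histones TH2B and TH2A, had 0 counts in all V5 libraries, 0, 2 and 3 in the wild type and 12 in the input.

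Hist2 held 11.2, 6.15 and 16.7 CPM in V5 and 7.76, 7.53 and 11.2 in the wild type, against 22.9 in the input. H3c14 had 3.72, 3.51 and 4.56 CPM in V5 and 3.88, 1.51 and 0.799 in the wild type, with 3.15 in the input. Its V5 libraries were alike, and wild-type replicate 1 lay among them. H3c15, another H3 gene of Hist2, had 4.96, 0 and 2.74 against 3.88, 0.753 and 0.399, with 5.16 in the input. H2bc21 had 15 of its 16 V5 counts in replicate 3. Hist3 held 0, 14.9 and 3.65 CPM in V5 and 1.55, 0.753 and 2.40 in the wild type, with 5.16 in the input, and H2bu2 in V5 replicate 2 gave most of the second value. H2aw, the H2A gene of Hist3, had 0, 0 and 10 counts with the tag and 2, 0 and 5 in the wild type. It overlaps Trim17. H4f16, alone at Hist4 (chromosome 6, 136803993 to 136804431, deposited length 2879 bp), had 19, 4 and 25 counts with the tag, 0, 18 and 13 in the wild type and 15 in the input. In CPM these were 23.6, 3.51 and 7.61 against 0, 13.6 and 5.19, so each group spanned a wide range.

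**Figure D3:**
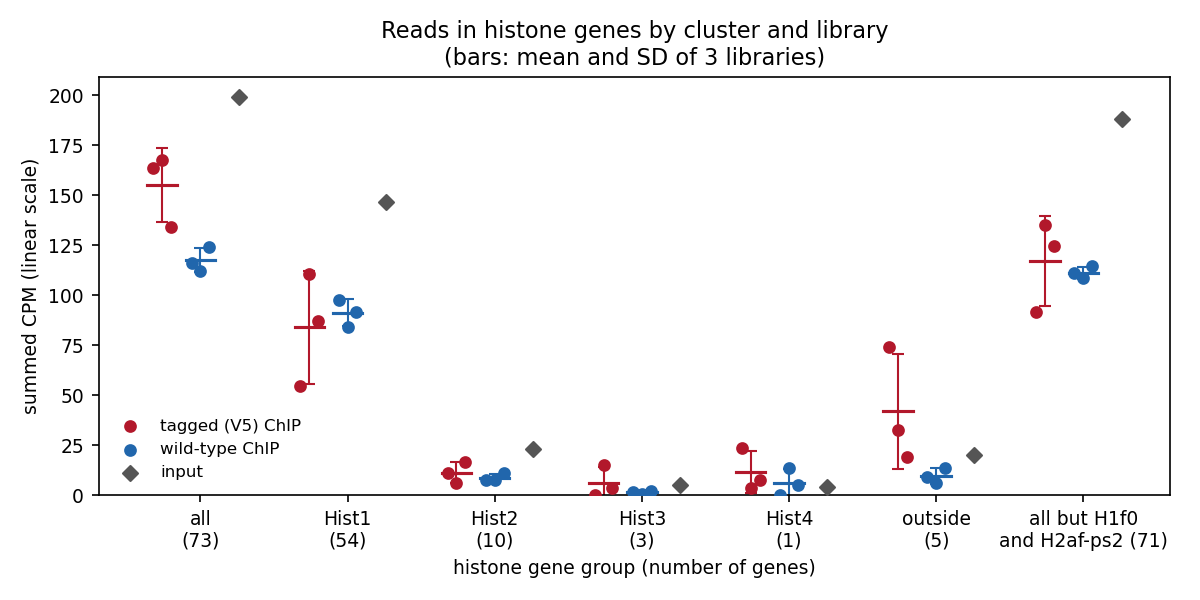
Summed CPM (y axis, linear) of histone genes by cluster (x axis, with the number of genes), per library, with the mean and SD of 3 ChIP libraries, where the lower end of an SD bar that would pass below 0 is not drawn. The V5 points lie above the wild-type points for all 73 genes and for the 5 outside the clusters, but overlap in Hist1 to Hist4 and once H1f0 and H2af-ps2 are left out. The input lies above all ChIP libraries in Hist1 and Hist2.

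By type, the H1 genes held 47.1, 31.6 and 20.4 CPM in V5 and 16.3, 6.78 and 17.6 in the wild type, without overlap. The 6 H1 genes of Hist1 held 12.4, 8.78 and 6.69 against 12.4, 3.77 and 7.99, with overlap. H1f4, which encodes H1.4, had 5, 5 and 7 counts with the tag and 13, 0 and 10 in the wild type. H1f2, which encodes H1.2, had 4, 5 and 4 against 0, 1 and 7. H1f1, which encodes H1.1, had 1, 0 and 8 against 3, 3 and 1. It had 0 counts in the input, as did H1f5 and H1f6. The H2A genes held 45.9, 30.7 and 20.4 CPM in V5 and 24.8, 8.29 and 18.0 in the wild type, and without H2af-ps2 6.20, 21.1 and 14.9 against 19.4, 5.27 and 13.97. Of their long members, H2ac6 had 0, 1 and 14 counts against 9, 3 and 9. The H2B genes, H2bc6 included, held 26.03, 82.6 and 66.9 against 59.7, 73.8 and 69.9. The H3 genes held 9.92, 13.2 and 15.2 against 10.9, 7.53 and 9.18. The V5 range lay mostly higher there, but V5 replicate 1 fell below wild-type replicate 1. H3c11 had 1, 0 and 5 counts against 0, 4 and 5, and H2ac21 had 1, 0 and 9 against 0, 0 and 6. The H4 genes held 34.7, 9.66 and 11.3 against 4.66, 15.8 and 9.58, and H4f16 gave most of the first value.

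The short histone genes were lower in every ChIP library, tagged or not, than in the input. The 53 histone genes of at most 1 kb had 293 counts in the input, or 84.0 CPM (exact Poisson 95% interval 74.6 to 94.2, counting error only). V5 replicates 1 to 3 held 21.1, 50.9 and 26.5 CPM, from 17, 58 and 87 counts. The wild-type libraries held 21.0, 16.6 and 23.96 CPM, from 27, 22 and 60 counts. The upper limits of the ChIP intervals reached 65.9 CPM at most, in V5 replicate 2, so all 6 ChIP libraries lay below the interval of the input. Relative to the input the means were 0.391 (SD 0.190, n = 3) for V5 and 0.244 (SD 0.0442, n = 3) for wild type. The 20 longer histone genes stood at 1.06 and 0.843. The 15 of them in the clusters stood at 0.844 and 0.919. All 6 ChIP libraries were below the input there, but the interval of each overlapped that of the input (95.2 CPM, 85.2 to 106). Of the 48 short histone genes with a count, 28 (58.3%) were below the input in all 6 ChIP libraries, against 9.12% of all genes of that length with a count and 14.1% of all genes with a count. At this depth a ChIP library with 0 counts in a gene counts as below the input, which favours such calls in genes with few reads. A gene at 0 in the input cannot lie below it. That held for 15.1% of the 53 short histone genes, against 66.3% of the other 3520 genes of that length. Both include genes at 0 in all 7 libraries (9.43% and 33.4%), which the shares with a count leave out. Genes at 0 in the input alone stay in those shares, so the shares have unlike bases. The comparison was seen in the data before it was measured, and it rests on 1 input library.

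Other short genes did not share this. The other 3520 genes of at most 1 kb stood at 2.03 of the input in V5 and 2.08 in the wild type, as a sum. Many are olfactory and vomeronasal receptor genes. Among the 419 other protein-coding genes of that length outside those families (Olfr and Vmn symbols), the values were 1.15 and 1.25. Per kb of deposited length the short histone genes had 3.57 CPM in the input, against 1.31 for those 419 genes and 0.977 over all genes. In ChIP they had 1.40 in V5 and 0.871 in the wild type, against 1.51 and 1.64 for the 419 genes and 0.977 over all genes. The short histone genes thus stood apart from all genes in the input, and less so in the ChIP libraries. In the input 84.9% of the short histone genes had a count, against 49.2% of the 419.

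**Figure D4:**
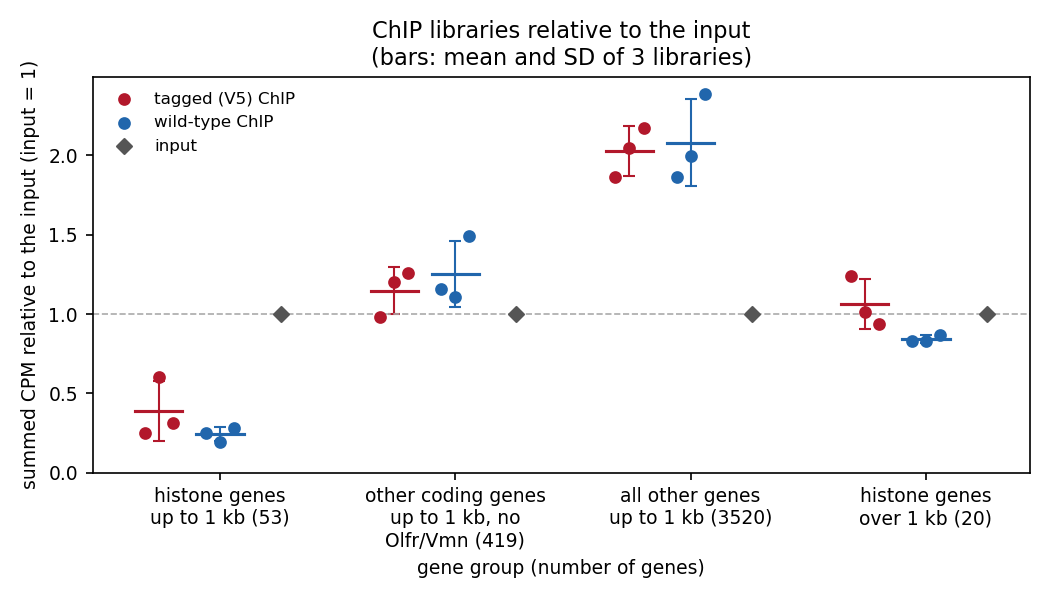
Summed CPM relative to the input (y axis, linear, input = 1) for 4 gene groups (x axis, with the number of genes), per library, with the mean and SD of 3 ChIP libraries. Short histone genes lie below 1 in all 6 ChIP libraries, other short genes lie near or above 1, and the longer histone genes lie on both sides of 1.

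In all 4 core histone types the short genes were highest in the input, but not beyond counting error in every library. Per kb of deposited length, the short H2A genes had 5.02 CPM in the input, 1.60 in V5 and 1.05 in the wild type. The short H3 genes had 4.52, 1.52 and 1.32, the short H2B genes 3.06, 1.17 and 0.292, and the short H4 genes 2.89, 1.64 and 0.884. In each type the input was above all 6 ChIP libraries, though for H4 V5 replicate 1, at 11.2 CPM in sum, came close to the input at 12.3. Single libraries moved these means. Without V5 replicate 2 the V5 level per kb was 0.455 for H2B and 0.974 for H2A. H2bu2 gave 16 of the 17 counts of short H2B genes in that library, and without H2bu2 the V5 level of H2B was 0.358 per kb, against 0.252 in the wild type and 3.26 in the input. The wild-type level of H2B was 0.438 without replicate 1 and 0.175 without replicate 2. The genes with the highest input level per kb were H2ac13, with 14 counts, H2bc7, with 12, H3c6, with 12, and H2ac15 and H2ac24, with 11 each. In all ChIP libraries together, H2ac13 had 11 counts, H2bc7 4, H3c6 6, H2ac15 3 and H2ac24 6. These genes were picked by their input level, so lower ChIP counts in them are no separate support. Only in the input did H2bc13, H2bc11 and H4c1 have counts, with 6, 5 and 3. By cluster, the short genes of Hist1 stood at 0.359 of the input in V5 and 0.248 in the wild type, and those of Hist2 at 0.235 and 0.244. The wild-type value of Hist2 was 0.366 without replicate 1 and 0.0876 without replicate 3.

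**Figure D5:**
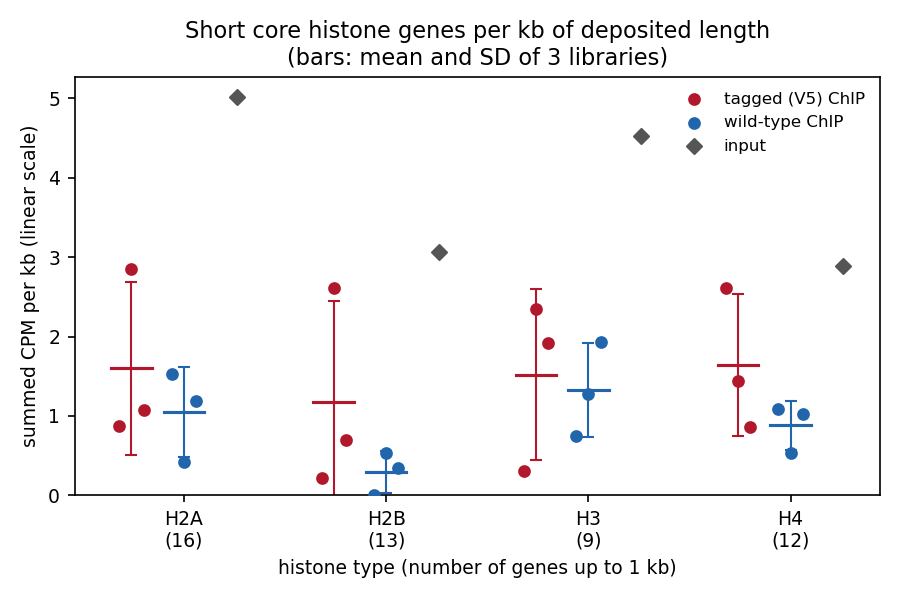
Summed CPM per kb of deposited length (y axis, linear) of the short core histone genes by type (x axis, with the number of genes), per library, with the mean and SD of 3 ChIP libraries, where the lower end of an SD bar that would pass below 0 is not drawn. The input diamond lies above every ChIP point in all 4 types.

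Genes that act on histone genes or histones were listed beside them. Of 21 tested genes for histone gene transcription and mRNA processing, 0 passed in either direction. In this list 12 leaned to V5 and the median log2 fold change was 0.02, the same as over all tested genes, of which 52.0% were positive. Npat, the coactivator that switches on histone genes in S phase, had 12, 18 and 170 counts with the tag and 51, 85 and 138 in the wild type. Its difference was -0.87 on the log2 scale (SE 0.46, adjusted p = 0.980 with edgeR). Slbp, which binds the stem-loop of histone mRNAs, stood at 0.53 (SE 0.72). Casp8ap2 (FLASH), which helps cut histone pre-mRNA, stood at 0.01 (SE 0.40), Lsm11 of the U7 particle at 0.30 (SE 0.74), and Hinfp, an activator of H4 genes, at 0.68 (SE 0.89). Of 13 tested histone chaperones 0 passed, 8 of them leaned to V5, and the median difference was 0.06 on the log2 scale. Asf1b, a chaperone of newly made H3 and H4, had 1, 2 and 27 counts with the tag and 25, 17 and 47 in the wild type, or -1.97 on the log2 scale (SE 0.80, adjusted p = 0.980 with edgeR). It was chosen after its values were seen, as the only gene of these lists at an unadjusted p under 0.05.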

How the data were processed

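The deposited tables hold whole-number read counts for each gene of 7 libraries and a gene length, per the file headers. Each library's own file was identical to its column of the joint table. The submitters' processing notes name bcl2fastq, featureCounts, MACS and mm10, without roles or versions. No source used here gives the aligner or says how duplicate and multi-mapping reads were treated. Gene identifiers matched a RefSeq GRCm38.p6 symbol for 25275 of 27179 genes. The deposited length was within 1% of the RefSeq span in 18 of 73 histone genes and a multiple of 3 in 50, so many may cover coding sequence only. Reads of near-identical copies are uncertain. The deposited length of 1 gene was below 1 bp, and it was left out of the length classes.

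CPM is counts per 1e6 counts of the library. V5 and wild-type libraries were compared over all genes by edgeR 4.0.16's robust quasi-likelihood fit (R 4.3.3; TMM factors, genes kept by filterByExpr at a minimum of 10 counts, Benjamini-Hochberg adjustment, threshold 0.05; biological coefficient of variation 0.387), tested on simulated data. The simulation changed only genes with more counts than most histone genes hold, so it does not show whether a change in those would be found. SEs were derived from the F statistic. DESeq2 1.42.0, limma-voom (limma 3.58.1), RLE factors, no filter, a replicate block and leaving out each library were tried. Sums have no test. Named are the 2 tested histone genes, the 20 with most counts, the highest of each cluster, and those with at least 30 ChIP counts whose groups did not overlap; others named were chosen after their values were seen. The members and lists were chosen with earlier results of these data known, as were the 1 kb class and its values without single libraries or H2bu2.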

Additional observations from a re-analysis of the deposited data

How the results depend on the processing

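No histone gene was called under any alternative run (DESeq2, RLE factors, no filter, limma-voom, the replicate block and leaving out each library). Over all genes, calls went from 0 to 9 without a filter, 4 with limma-voom and 1 with the replicate block, and ranged from 0 to 2 when single libraries were left out. Same-numbered libraries were not paired by the data (correlations of deviations 0.0140, 0.00589 and 0.0601, and 4 of 6 libraries correlated best with their own number). H2bc6 turned to 0.20 without V5 replicate 1 and to 0.01 without wild-type replicate 1, within a range of -0.38 to 0.20, and H2bc4 ranged from -1.30 to -0.51.

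The V5 over wild-type ratio of all 73 genes (1.32) was 1.52 over genes that overlap no other gene, 1.55 without H2bc6, 1.05 without members outside the clusters and, in choices made after seeing the data, 1.60 in genes of at most 1 kb and 1.05 without H1f0 and H2af-ps2. It was 1.16 for H1 without H1f0 and 1.15 within clusters, 1.09 for H2A without H2af-ps2, which is also the value within clusters, and 13.5 for Hist3 without H2aw. Over input, all genes went from 0.779 to 0.632 in V5 within clusters, and from 0.590 to 0.500 in wild type over genes without overlap and 0.494 without H2bc6. The cause was not tested beyond these choices of members.

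Leaving out single libraries gave ratios from 1.27 to 1.41 for all genes, 0.775 to 1.08 for Hist1, 0.981 to 1.58 for Hist2, 1.17 to 5.93 for Hist3, 0.890 to 4.45 (without wild-type replicate 2) for Hist4, which has no value without its only gene (nor has Hist3 over genes without overlap), 1.92 to 2.91 for H1, 1.5 to 2.46 for H2A, 0.685 to 1.10 for H2B, 1.26 to 1.54 for H3 and 1.04 to 2.60 for H4. Over input they gave 0.747 to 0.832 (V5) and 0.574 to 0.604 (wild type) for all genes, and 0.283 to 0.461 (V5) and 0.223 to 0.267 (wild type) for short genes. Each ChIP library was below the input in both sums, so leaving out a library could not undo the shortfall. The single input could not be left out. No histone gene of at most 1 kb passed the count filter of edgeR, so the filtered fits did not test a change in a single short gene. Whether such a change could be found at this depth was not shown.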

Other observations

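A list of 11 histone variant genes, H1f0 and H1f10 among them, held 182, 182 and 149 CPM in V5. It held 119, 113 and 133 in the wild type and 151 in the input. Of 11 such genes 4 had enough counts to be tested, 3 with a positive log2 fold change (median 0.44), and 0 passed with edgeR. Macroh2a1, a macroH2A gene, stood at 0.67 (SE 0.36, edgeR adjusted p = 0.980), Macroh2a2 at 0.28 (SE 0.43), Cenpa, the H3 variant of centromeres, at 0.60 (SE 0.77) and H2az2, an H2A.Z gene, at -0.78 (SE 0.67). H2ax, the variant phosphorylated at DNA breaks, had 0, 29 and 11 V5 counts, 2, 5 and 2 wild-type counts and 27 input counts. H3f3a and H3f3b, the genes of H3.3, had 0 counts in all 7 libraries.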
